A study of Sus scrofa with 4 samples.

Results

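The HOX genes encode homeodomain transcription factors that specify position along the head-to-tail axis of the embryo, and the 31 HOX genes listed for these pig cells are described here. They were taken as the protein-coding genes whose symbol is HOX followed by a cluster letter from A to D and a number, and they made up 31 of 31567 listed features and 31 of 16192 protein-coding genes. HOXA held 11 members, HOXB 6, HOXC 7 and HOXD 7. Further HOX symbols of the pig reference gene table were not analysed here.

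Preadipocytes were isolated from the subcutaneous fat of 3 male five-day-old Chinese Erhualian piglets and differentiated in culture. D0 was taken at confluence before any hormone. D2 followed 2 days of the DMI cocktail (dexamethasone, 3-isobutyl-1-methylxanthine and insulin) in growth medium, D4 a further 2 days in medium with insulin, and D8 a last stretch in growth medium without added hormone. For each stage the RNA of the 3 piglets was pooled into 1 rRNA-depleted library, so there were no replicates, a stage cannot be told apart from its library, and no test between stages was made. The place on the body from which the fat was taken is not given in the sources used here.

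In vertebrates the HOX genes lie in 4 clusters, and within a cluster the order of the genes along the chromosome follows the order in which they are used from anterior to posterior. Genes with the same number in different clusters are called a paralogue group, so a low number marks the anterior end and a high number the posterior end. Fibroblasts and fat stromal cells of adult animals keep part of this code in culture, and human fat depots differ in which HOX genes they use.

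The deposited unit was FPKM, the number of fragments on a gene per kilobase of its length relative to all fragments counted in that library, so that levels can be compared between genes. Between 54128151 and 75387428 fragments were counted per library, as computed from the deposited values, and a length at which the 4 values of a gene were whole reads was found for 22944 of 22944 genes, each value lying within 1.1e-06 of its whole read number as a fraction of that number. Intervals given below are 95% intervals from these reads and cover counting error only. A gene was called reliably expressed when its FPKM reached 1 in 3 or more libraries, and because few HOX genes met this rule, members with at least 100 reads over the 4 libraries were also described. Of the markers of stromal preadipocytes 8 of 9 listed genes were reliably expressed, and of the adipocyte markers 8 of 10. The perilipin gene PLIN1 was at FPKM 2.28, 36.1, 215 and 90.3 at D0, D2, D4 and D8. Of other cell types, reliably expressed markers numbered 1 of 7 for endothelium (PECAM1), 3 of 8 for macrophages and leukocytes, 1 of 3 for mesothelium, 1 of 4 for epithelium (KRT5), 4 of 6 for smooth muscle and pericytes, 0 of 3 for skeletal muscle progenitors and 0 of 3 for Schwann cells. KRT5 was at FPKM 44.4, 107, 180 and 275 at D0, D2, D4 and D8, whereas the epithelial adhesion genes EPCAM and CDH1 stayed below FPKM 1. In pooled bulk RNA, fewer cells of a type and less RNA per cell cannot be told apart.

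The HOX genes were weakly expressed as a family. The median FPKM over the 31 members was 0.189, 0.193, 0.178 and 0.114 for D0, D2, D4 and D8, whereas the median over all 16192 protein-coding genes was 1.95, 1.88, 2.23 and 1.77, respectively. Together they held 5346, 3776, 4986 and 2844 reads in these libraries, which was 0.00709%, 0.00687%, 0.00671% and 0.00525% of the fragments counted. Reads were found in all 4 libraries for 27 of 31 members, and 22 of 31 stayed below FPKM 1 in all libraries. Only 3 members were reliably expressed, namely HOXC5, HOXC9 and HOXD8, and only HOXD8 exceeded FPKM 2.

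HOXD8, a gene of the trunk region of the axis, stood above every other member in each library. It lies on chromosome 15 from 81930923 to 81935528 of the pig genome build Sscrofa11.1 (gene ID 100515172). Its FPKM was 9.92, 8.81, 8.003 and 7.36 in the D0, D2, D4 and D8 libraries, from 3165, 2050, 2518 and 1686 reads. The level was lower at each later stage, but the step from D4 to D8 turned upward when the libraries were scaled by the median ratio over genes (log2 ratio −0.12 as deposited and 0.09 after scaling). D8 was 1.35-fold below D0 (interval 1.27 to 1.43). The next member was HOXA7 at D0, HOXA5 at D2 and D4, and HOXC9 at D8, and HOXD8 was 6.79, 6.04, 4.57 and 4.96 times as high as that gene. HOXD8 alone made up 45.9% of the summed HOX FPKM at D0 (interval 44.5 to 47.4) and 42.9%, 40.4% and 45.7% at the later stages. Among the 9191 reliably expressed protein-coding genes it was ordinary, since their median FPKM was 8.23, 7.71, 8.51 and 7.27. It was above the median over all 16192 protein-coding genes, which was 1.95, 1.88, 2.23 and 1.77.

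**Figure D1:**
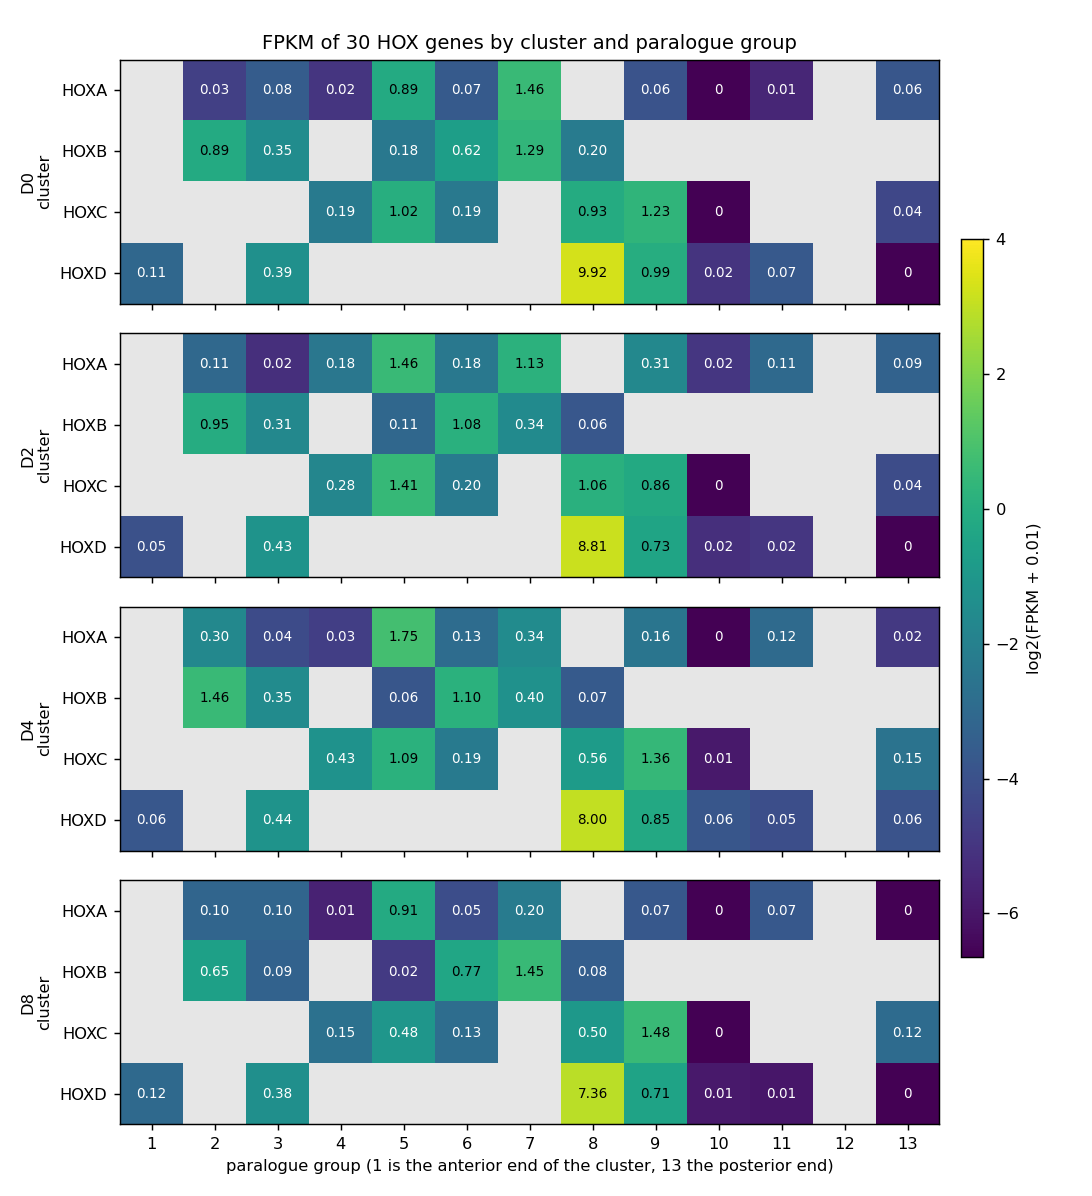
FPKM of 30 HOX genes in the D0, D2, D4 and D8 libraries, with clusters as rows and paralogue groups as columns, the colour showing log2(FPKM + 0.01), the printed number the FPKM, and grey a position with no value shown. HOXD8 was the only gene above FPKM 2 (7.36 to 9.92), and paralogue groups 10 to 13 stayed at or below FPKM 0.155.

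By cluster, HOXD led the summed FPKM and did so through a single gene. HOXD (chromosome 15, 81893997 to 81990026) summed to 53.3%, 48.9%, 48.0% and 53.3% of the HOX FPKM in the D0, D2, D4 and D8 libraries. Without HOXD8 the other 6 HOXD genes reached a summed FPKM of only 1.58, 1.25, 1.52 and 1.22, the lowest sum of the 4 clusters in all libraries.

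HOXC (chromosome 5, 19151096 to 19268267) had a summed FPKM of 3.60, 3.85, 3.79 and 2.86 at D0, D2, D4 and D8. HOXB (chromosome 12, 24796786 to 24879706) was at 3.54, 2.85, 3.44 and 3.06. HOXA (chromosome 18) was at 2.96, 3.80, 3.07 and 1.61. The HOXA sum thus moved most as a fold between libraries, and its share of the HOX FPKM went from 18.5% at D2 (interval 16.8 to 20.2) to 10.02% at D8 (interval 8.63 to 11.4). Over all members the summed FPKM was 21.6, 20.6, 19.8 and 16.1, and without HOXD8 it was 11.7, 11.8, 11.8 and 8.75, so that D0, D2 and D4 were alike and D8 was lower. These sums are of FPKM as deposited and were not recomputed under another scaling. The median log2 ratio of all reliably expressed genes for D8 vs D4 was −0.21 in the same values, so a lower D8 was not particular to the HOX genes.

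**Figure D2:**
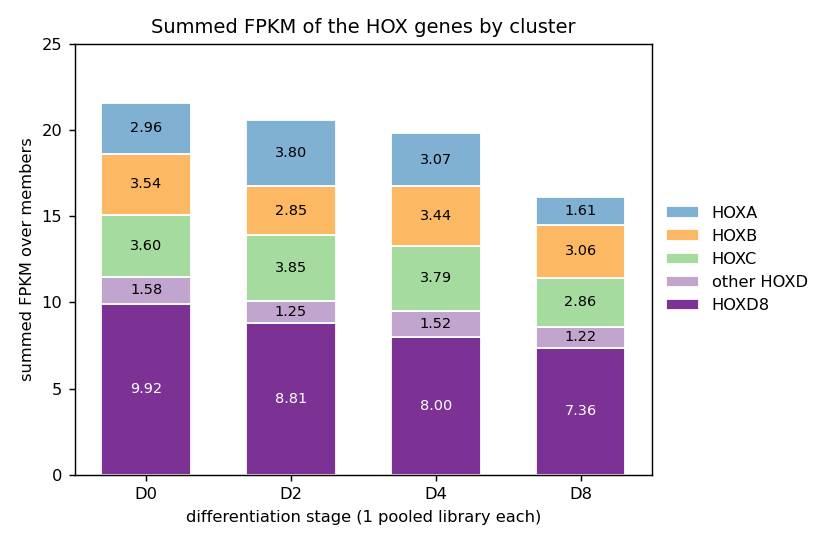
Summed FPKM of the HOX genes by cluster in each of the 4 libraries, with HOXD8 drawn apart from the other HOXD genes. HOXD8 made up 40.4% to 45.9% of each bar, and the HOXA part was smallest at D8 (1.61).

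Along the axis, the central paralogue groups 4 to 8, with 13 of the 31 members, held most of the summed FPKM. Groups 4 to 8 made up 78.7%, 79.3%, 71.4% and 75.1% of the summed HOX FPKM from D0 to D8. HOXD8 belongs to group 8, and with it left out of both the groups and the sum these shares were 60.6%, 63.7%, 52.03% and 54.1%. The anterior groups 1 to 3, with 7 members, made up 9.84%, 10.03%, 14.3% and 9.65%. Group 9, with 3 members, made up 10.5%, 9.21%, 11.9% and 14.05%. By the median over members, group 9 was above groups 4 to 8 in each library. Its median FPKM was 0.990, 0.727, 0.846 and 0.712, and that of groups 4 to 8 was 0.624, 0.336, 0.402 and 0.203. Groups 10 to 13, with 8 members, made up 0.925%, 1.51%, 2.38% and 1.24%. The levels therefore dropped between group 9 and group 10, where the summed FPKM went from 2.28 to 0.0205 at D0 and from 2.26 to 0.00660 at D8. In these 2 libraries the group 10 sum was HOXD10 alone, from 13 and 3 reads. HOXD10 lies inside the annotated span of HOXD9 on the same strand, and HOXD11 overlaps HOXD9 by 351 bases. How fragments in these shared bases were assigned is not given in the sources used here.

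The order of the 31 members by FPKM was compared between the 4 libraries. The Spearman coefficient across the 31 genes was 0.85 between D0 and D2, 0.82 between D0 and D4, and 0.88 between D0 and D8. Between D2 and D4 it was 0.90, between D2 and D8 it was 0.83 and between D4 and D8 it was 0.92. Over the 18 members with at least 100 reads it ranged from 0.67 between D0 and D4 to 0.86 between D4 and D8. These are descriptions across genes of single libraries, and genes are not independent replicates.

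Among the anterior genes, HOXB2, which patterns the hindbrain, was the highest. Its FPKM was 0.887, 0.954, 1.46 and 0.648 at D0, D2, D4 and D8. It was highest at D4, and D8 was 2.25-fold below D4 (interval 1.81 to 2.83). HOXD3, a gene of the hindbrain and neck, was the steadiest member with at least 100 reads, at 0.395, 0.429, 0.438 and 0.384. Its paralogue HOXB3 was at 0.353, 0.305 and 0.345 at D0, D2 and D4 and at 0.0916 at D8, from 209, 132, 202 and 39 reads. The first 3 libraries were close together, and D8 was 3.77-fold below D4 (interval 2.67 to 5.46).

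HOXA3, which acts in the pharyngeal arches, was at FPKM 0.0766, 0.0168, 0.0435 and 0.102, from 50, 8, 28 and 48 reads. It was lowest at D2, 4.56-fold below D0 (interval 2.14 to 11.13). The annotated span of HOXA3 contains HOXA4, HOXA5 and HOXA6 on the same strand and several genes on the opposite strand, and how fragments in shared bases were assigned is not given in the sources used here. HOXA2, another hindbrain gene, had 94 reads in all and ranged from FPKM 0.0307 at D0 to 0.301 at D4, and HOXD1 had 46 reads and ranged from 0.0523 to 0.115.

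Of the central genes, HOXC5 was the only reliably expressed member past 2-fold in any comparison. Its values were FPKM 1.02, 1.41, 1.09 and 0.477, from 125, 126, 132 and 42 reads. D8 was the low library, 2.29-fold below D4 (interval 1.61 to 3.32) and 2.14-fold below D0 (interval 1.496 to 3.11), and under median-ratio scaling neither ratio reached 2-fold. HOXA5, which has been linked to fat cell differentiation, was the highest member after HOXD8 by its mean, at 0.893, 1.46, 1.75 and 0.905. D2 and D4 were thus above D0 and D8, and D4 was 1.96-fold above D0 (interval 1.59 to 2.43). HOXB6, a trunk gene, was also higher at D2 and D4, at 0.624, 1.08, 1.10 and 0.767. HOXC4, the anterior end of the HOXC cluster, was at 0.193, 0.282, 0.426 and 0.147, and D8 was 2.90-fold below D4 (interval 2.17 to 3.94).

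The paralogues HOXA7 and HOXB7, both trunk genes, began at like levels and then parted. HOXA7 (chromosome 18, 45417137 to 45419113) was at FPKM 1.46, 1.13, 0.337 and 0.203 at D0, D2, D4 and D8, from 110, 62, 25 and 11 reads. It was lower in each later library, and D8 was 7.18-fold below D0 (interval 3.86 to 14.8), the widest fold between D8 and D0 among the 18 members with at least 100 reads. HOXB7 (chromosome 12, 24861165 to 24864675) was at 1.29, 0.336, 0.402 and 1.45, from 137, 26, 42 and 110 reads. It was low at D2 and D4 and high at D0 and D8. D2 was 3.84-fold below D0 (interval 2.51 to 6.09), and D8 was 3.60-fold above D4 (interval 2.50 to 5.26).

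HOXB7 was the only member of the 18 with D2 and D4 both at least 2-fold below both D0 and D8, a shape that 3.80% of the 12461 protein-coding genes with at least 100 reads also had. Of the smooth muscle genes ACTA2, TAGLN and CNN1 had it too. ACTA2, which encodes smooth muscle actin, was at FPKM 2907, 324, 225 and 2762, TAGLN at 2767, 297, 277 and 1987, and CNN1 at 94.3, 4.22, 2.39 and 24.2. DES was at 436, 37.7, 4.05 and 35.7, with D2 and D8 alike, whereas the pericyte and smooth muscle markers RGS5 and MYH11 stayed below FPKM 1. The summed FPKM of these 6 markers was 6205, 664, 510 and 4810, and their part in the HOXB7 values was not tested.

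HOXA9, known from blood stem cells and the trunk skeleton, had the opposite shape. Its FPKM was 0.0568, 0.305, 0.163 and 0.0664, from 25, 98, 71 and 21 reads, so that D2 and D4 were each at least 2-fold above both D0 and D8. D2 was 5.37-fold above D0 (interval 3.44 to 8.71). Again 1 of 18 members had this shape, beside 3.08% of all genes with at least 100 reads. HOXA6 was at 0.0707, 0.183, 0.127 and 0.0474 and was also highest at D2, 2.59-fold above D0 (interval 1.59 to 4.30).

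HOXC9, known to mark white over brown fat, was reliably expressed, at FPKM 1.23, 0.861, 1.36 and 1.48. Its lowest value was at D2, and no comparison passed 2-fold. HOXC8, known to act against brown fat differentiation, was not reliably expressed. It was at 0.929, 1.06, 0.557 and 0.496, lower at D4 and D8 than at D0 and D2. No list of genes that tell white from brown fat was examined. D8 was 1.87-fold below D0 (interval 1.38 to 2.58). HOXD9, a gene of the lower trunk and proximal limb, was at 0.990, 0.727, 0.846 and 0.712. HOXC6 was at 0.189, 0.200, 0.194 and 0.130, lowest at D8, which was 1.49-fold below D4 (interval 1.01 to 2.22).

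Of the central members with fewer than 100 reads, HOXB5 was highest at D0, at FPKM 0.182, 0.108, 0.0615 and 0.0248 from 51, 22, 17 and 5 reads. HOXB8 was also highest at D0, at 0.203, 0.0634, 0.0704 and 0.0806. HOXA4 had 26 reads in all, 18 of them at D2.

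The posterior genes, which pattern the lumbar to caudal axis and the distal limb, were near the limit of detection. HOXC13, a gene of hair and nail formation, was the highest of them by its mean over the libraries, at FPKM 0.0381, 0.0448, 0.155 and 0.121 from 7, 6, 28 and 16 reads. HOXA11 had 44 reads, HOXD10 63 and HOXD11 34, and their FPKM did not exceed 0.120, 0.0624 and 0.0683. HOXA13, which patterns the digits, had 23, 25 and 9 reads at D0, D2 and D4 and 0 at D8, which allows an FPKM of up to 0.0111. HOXA10 had 10 reads at D2 and 0 in the other libraries, where 0 allows up to 0.00484 at D0, 0.00490 at D4 and 0.00674 at D8. HOXC10 had 1 recovered read and HOXD13 had 1 recovered read, both at D4, and neither was detectable at this depth in the other libraries. These are the lowest read numbers that fit, since the span allows 2 times the length used for HOXC10 and up to 16 times that used for HOXD13 (244 bases).

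Across the comparisons, few HOX genes were past 2-fold by the rule for reliably expressed genes. The number was 0 of 3 members for D2 vs D0, 0 of 3 for D4 vs D2 and 0 of 3 for D4 vs D0, where 16.8%, 5.08% and 19.2% of the 9191 reliably expressed protein-coding genes were past it. For D8 vs D4 and for D8 vs D0 it was 1 of 3, HOXC5 both times, beside 14.5% and 7.28% of those genes. With 3 members these counts are values of single genes, and the comparisons with D0 share the D0 library. The median log2 ratio of the 3 members was −0.17 for D2 vs D0, −0.14 for D4 vs D2, −0.12 for D8 vs D4, 0.10 for D4 vs D0 and −0.43 for D8 vs D0. Over all reliably expressed genes it was −0.03, 0.09, −0.21, 0.06 and −0.18, respectively.

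Of the 18 members with at least 100 reads, a rule chosen after seeing the data, 10 were past 2-fold in at least 1 comparison, beside 41.2% of the 12461 protein-coding genes with as many reads. Here and below, those genes were not matched to the members for level, and counting error moves low genes past 2-fold more easily. D2 vs D0 had 4 members, HOXA6 and HOXA9 higher and HOXA3 and HOXB7 lower, beside 24.0% of all genes. D4 vs D2 had 1, HOXA7, which was lower, beside 10.8%. D4 vs D0 had 4, HOXA9 and HOXC4 higher and HOXA7 and HOXB7 lower, beside 26.5%. D8 vs D0 had 4, all lower, with HOXA7, HOXB3 and HOXC5 among them, beside 13.9%. For D2 vs D0, D4 vs D2 and D4 vs D0 the count of members was thus no larger a share than that of all genes.

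The step from D4 to D8 had the most members past 2-fold. HOXA6, HOXA9, HOXB2, HOXB3, HOXC4 and HOXC5 were lower at D8 and HOXA3 and HOXB7 higher, which made 8 of 18 beside 21.5% of all genes. Counting differences of any size, 15 of 18 members were lower at D8 than at D4, beside 64.2% of all genes. The median log2 ratio of the members was −0.57 and that of all genes −0.23. D8 was the lowest of the 4 libraries for 12 of 18 members, beside 35.5% of all genes. When the libraries were scaled by the median ratio over genes instead, 12 of 18 members were lower at D8 than at D4, beside 51.5% of all genes, and D8 was lowest for 8 of 18, beside 22.6%. Of the 6 members at least 2-fold lower at D8, HOXA6, HOXB3 and HOXC4 were so under that scaling too. The counting interval of the ratio excluded 0 on the log2 scale for each of the 8 members past 2-fold.

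**Figure D3:**
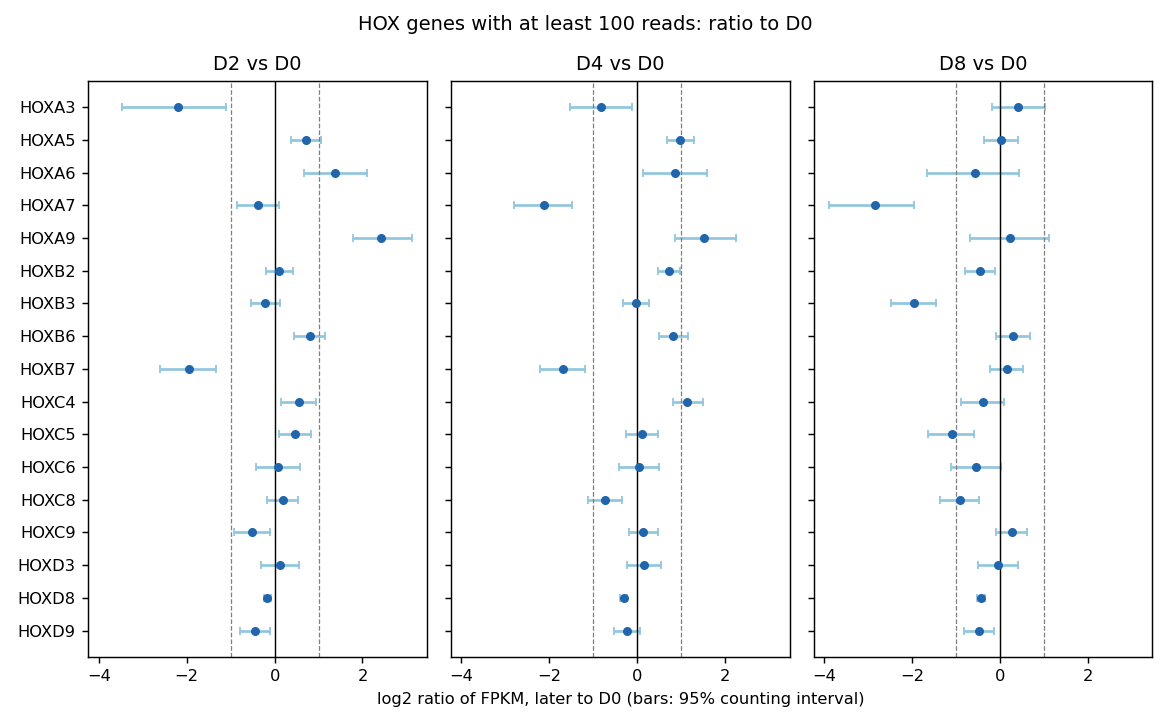
Log2 ratio of FPKM to D0 for 17 HOX genes with at least 100 reads, with points for the ratio, bars for the 95% counting interval and dashed lines at 2-fold in either direction. HOXA7 moved down to 7.18-fold below D0 at D8, HOXB7 was low at D2 and D4 only, and HOXD8 stayed within 1.35-fold of D0.

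The spread over the stages was also given per gene as the highest minus the lowest log2(FPKM + 0.01). Its median was 1.18 over the 18 members and 0.86 over all genes with at least 100 reads. The genes were not matched to the members for level, and counting error alone widens this spread in genes with few reads. At least 1 on this scale was reached by 11 of 18 members and by 42.1% of all such genes. The smallest spread was that of HOXD3 at 0.19 and the largest that of HOXA7 at 2.78.

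The cofactors that bind DNA together with HOX proteins, the TALE homeodomain proteins of the PBX, MEIS and PKNOX families, were mostly higher than the HOX genes. Of 9 listed genes 7 were reliably expressed, and 4 were past 2-fold in at least 1 comparison, where 29.9% of all reliably expressed genes were. PBX2 was the highest at FPKM 13.003, 7.004, 8.003 and 9.10 at D0, D2, D4 and D8. MEIS1 was at 7.83, 2.50, 2.81 and 3.66, so that D0 stood above the other libraries. PBX3 was at 2.49, 0.826, 1.27 and 1.62, with the same library on top, and MEIS2 was at 1.48, 3.58, 3.32 and 1.89, with D2 and D4 on top. MEIS3 ranged from 2.84 to 3.71 and PKNOX1 from 0.734 to 1.27. The ParaHOX genes and other homeobox genes linked to the HOX clusters, 8 in the list, were not analysed here.

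Other transcription factors with regional expression in the body wall and limbs were described beside the HOX genes. Of 36 listed genes 14 were reliably expressed and 7 were past 2-fold in at least 1 comparison, beside 29.9% of all reliably expressed genes. TBX2 was at FPKM 2.84, 2.33, 2.48 and 0.589, low at D8 only. SHOX2, a gene of the proximal limb, was at 8.66, 2.51, 2.13 and 4.70, and PRRX2, a gene of limb and face mesenchyme, was at 104, 33.3, 29.4 and 59.8, both lowest at D4. IRX5, which is known from fat cell progenitors, was at 1.31, 1.28, 1.86 and 0.638.

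Genes that keep HOX clusters silent or active were measured in the same libraries. Of 23 listed genes of the Polycomb complexes, which maintain silencing, 17 were reliably expressed and 4 were past 2-fold in at least 1 comparison, beside the same 29.9%. The methyltransferase genes EZH1 and EZH2 had different orders of libraries, EZH1 at 2.38, 6.76, 6.51 and 2.95 and EZH2 at 3.56, 1.55, 3.00 and 2.17. The Polycomb accessory genes AEBP2 (10.6, 5.21, 5.11 and 7.05) and PHF1 (3.45, 2.04, 1.51 and 2.06) were highest at D0. Of 12 listed genes of the trithorax group and other activators of HOX genes 8 were reliably expressed and 2 were past 2-fold, beside 29.9% again, namely MEN1 (1.06, 1.56, 2.24 and 0.934) and PSIP1 (3.90, 3.70, 4.71 and 2.16), both lowest at D8.

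Retinoic acid is a classical inducer of HOX genes, above all of the anterior ones. Of 13 listed genes of its pathway 9 were reliably expressed and 7 were past 2-fold, beside 29.9% of all reliably expressed genes. ALDH1A1, which makes retinoic acid, was at FPKM 0.675, 36.9, 34.4 and 13.7. CRABP2, which carries it to its receptor, was at 32.8, 1.09, 1.11 and 29.9, high at D0 and D8 and low at D2 and D4. CRABP1 was at 0.502, 1.68, 3.43 and 1.05 and the retinaldehyde reductase gene DHRS3 at 0.397, 1.63, 3.01 and 1.06, both highest at D4. Whether these genes bear on the HOX values was not tested.

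Within the 4 clusters and 10 kb on each side lay 22 other listed genes, of which 15 were lncRNAs, 3 miRNA genes and 4 protein-coding, and 0 circRNAs. Of the lncRNAs 11 were on the strand opposite to the HOX genes, and 5 reached FPKM 1 in at least 1 library. Since the strand setting of the counting is not given in the sources used here, reads of a HOX gene and of a gene that overlaps it on the other strand may not have been told apart.

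The gene with the highest FPKM inside the clusters was not a HOX gene. LOC106506838, a lncRNA of the HOXA cluster on the strand opposite to the HOX genes (chromosome 18, 45473363 to 45477416), was at FPKM 18.7, 20.8, 13.8 and 23.9 in the D0, D2, D4 and D8 libraries, from 963, 779, 700 and 881 reads. This was between 1.72 and 3.24 times HOXD8, and between 4.49 and 14.8 times the summed FPKM of the 11 HOXA genes. It was lowest at D4 and highest at D8, 1.73-fold apart.

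LOC110257592, inside the span of HOXA3 on the opposite strand, was at FPKM 2.33, 0.578, 1.16 and 0.978, and D2 was 4.03-fold below D0. D2 was the lowest library for HOXA3 as well. MSTRG.49200, which overlaps HOXC9 on the opposite strand, was at 0.953, 0.461, 1.19 and 0.547, and MSTRG.133844, which overlaps HOXD1 on the opposite strand, was at 0.899, 1.39, 0.427 and 0.431.

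MSTRG.133853, an assembled lncRNA on the strand of the HOX genes between HOXD8 and HOXD3 (chromosome 15, 81953532 to 81957512), was at FPKM 2.98, 1.21, 1.37 and 1.79 from 744, 220, 337 and 321 reads. This placed it below HOXD8 and above every other HOX gene at D0. It was highest at D0, 2.47-fold above D2. The gene MIR10B lies next to it, and in other mammals HOXD4 stands beside MIR10B. Whether MSTRG.133853 corresponds to that gene was not tested.

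Of the miRNA genes, MIR10B had 2, 8, 23 and 2 reads at D0, D2, D4 and D8, an FPKM of 0.332, 1.82, 3.87 and 0.462, highest at D4. MIR615, inside HOXC5, had 4, 1, 2 and 1 reads, and MIR10A, between HOXB3 and HOXB5, had 2 reads at D4 and 0 in the other libraries. A library of long RNA holds precursors and not mature miRNAs, so these values say nothing of the mature level.

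**Figure D4:**
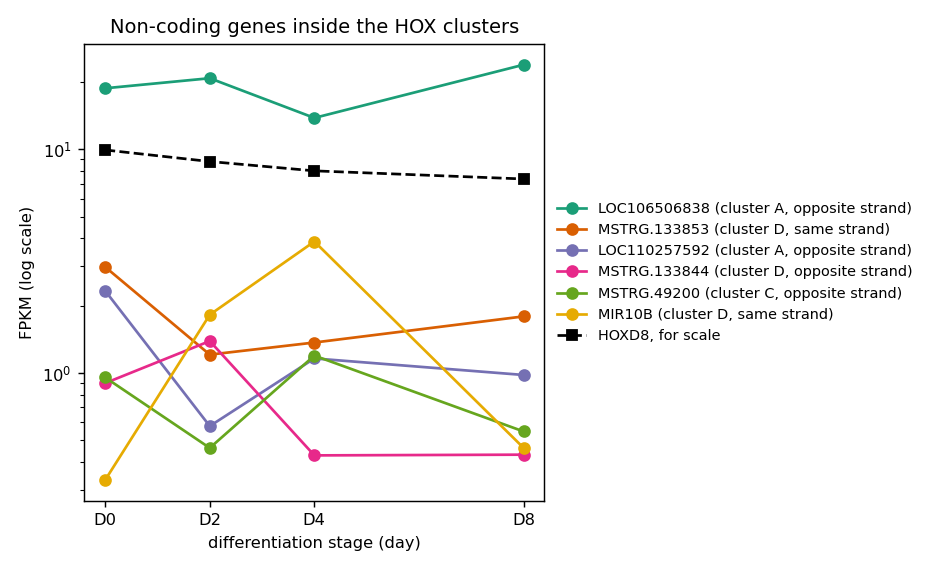
FPKM on a log scale against the day of differentiation for the 5 lncRNAs that reached FPKM 1 inside the HOX clusters and for MIR10B, with HOXD8 for scale. LOC106506838 lay above HOXD8 in all 4 libraries (13.8 to 23.9), and MIR10B rested on 2 to 23 reads.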

How the data were processed

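Trimmed reads were aligned to Sus scrofa 11.1 with HISAT2 2.0.5, and the authors deposited FPKM for genes and, for circRNAs called with CIRI from reads aligned with BWA, SRPBM. The libraries were strand-specific, but the counting tool and its strand setting are not given in the sources used here. The 31 members were matched to the reference gene table by symbol, start and end (31 of 31). From the deposited FPKM, library totals were found at which most miRNA and tRNA genes hold whole reads (D0 75387428, D2 54987801, D4 74358922, D8 54128151), 360 of 382, 343 of 367, 372 of 392 and 355 of 380 of them to within 0.0001 of the read number, and then the shortest length that gives each gene whole reads, so that read numbers of a gene may be whole fractions of the true ones and its intervals too wide. A member placed under 100 reads may for that reason hold more, as with HOXB8 and HOXC13, whose spans allow up to 5 and 3 times the length used. The recovered reads summed to 98.9% to 99.1% of the totals. Tested on simulated D4 vs D0 data of 2946 protein-coding genes, the read numbers were equal for 96.5% of genes and whole fractions for 3.46%. The simulation took the recovered lengths as true and drew on protein-coding genes of all levels, so these shares do not describe the weakly expressed HOX genes. Whether the length used for a HOX gene is its true length was not tested. Of the fragments, 12.4%, 17.1%, 12.5% and 16.5% lay on the signal recognition particle RNA.

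Ratios were called at 2-fold on log2(FPKM + 0.01), which understates the change of low genes. Folds in the text are without the pseudocount, with exact 95% intervals from the reads (a normal approximation for shares of summed FPKM), and a count of 0 was given a limit of 3 reads. HOX genes were named except where not reported here. From each list, up to 4 reliably expressed genes past 2-fold with the largest range were named, with the other reliably expressed cofactors, and inside the clusters every miRNA gene and every lncRNA that reached FPKM 1. Markers PLIN1, EPCAM, CDH1, RGS5 and MYH11 were named after seeing their values. Members and lists were chosen with earlier results of these data known. Alternatives were other pseudocounts, filters and scalings. Python 3.11.15, numpy 2.4.6, pandas 2.3.3, scipy 1.17.1 and matplotlib 3.10.9 were used.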

Additional observations from a re-analysis of the deposited data

How the results depend on the processing

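No paired analysis was possible because each stage had 1 pooled library, and for the same reason no replicate could be left out. Scaling by the median ratio over genes moved the median log2 ratio of all reliably expressed genes for D8 vs D4 from −0.21 to 0.00, and for D8 vs D0 from −0.18 to −0.03.

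The number of members past 2-fold followed the filter. Over all 31 members with no filter it was 10 for D2 vs D0, 8 for D4 vs D2 and 14 for D8 vs D4. It was 12 for D4 vs D0 and 11 for D8 vs D0. The share of all genes past 2-fold with no filter was not computed. Some of these calls rest on 1 recovered read, such as that of HOXD13 for D4 vs D2. Over the 18 members with at least 100 reads it was 4, 1, 8, 4 and 4 in that order. This rule was added after seeing the data, like the other settings of that set. HOXC5 gave 0 in place of 1 for D8 vs D4 and D8 vs D0 with a pseudocount of 1, with FPKM of at least 1 in all 4 libraries or with median-ratio scaling, and 0 for D8 vs D0 also with a pseudocount of 0.1. The median for D8 vs D4 was −0.74 with no filter and −0.57 with at least 100 reads, and for D4 vs D0 it was −0.31 with the filter in all 4 libraries.

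Within the set with at least 100 reads, a pseudocount of 0.1 gave 2 for D2 vs D0, 5 for D8 vs D4, 2 for D4 vs D0 and 2 for D8 vs D0. A pseudocount of 1, above most HOX values, gave 1 for D8 vs D0 and 0 for each of the other 4 comparisons. Median-ratio scaling gave 2 for D4 vs D2 and 5 for D8 vs D4, and without members that overlap another D2 vs D0 had 2. Under that scaling 3 of 18 members were past 2-fold lower at D8 than at D4 and 2 higher. Of all 12461 genes with at least 100 reads, 1187 were lower and 1199 higher. For the pseudocounts, and for D4 vs D2 under that scaling, the share of all genes was not computed. Of 360 recomputed ratios of single genes 39 moved past their counting error, 32 of them with a pseudocount of 1. The sign changed for 10 of the 360, and 0 of these were past 2-fold. That 0 could not have been otherwise, since a pseudocount cannot change a sign and the scalings moved ratios by less than 2-fold.

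The share of HOXD at D0, D2, D4 and D8 was 81.5%, 79.5%, 76.6% and 79.0% over the reliably expressed members and 13.5%, 10.6%, 12.8% and 13.98% without HOXD8. By the mean log2 level of its members HOXD ranked 3, 4, 3 and 3 of the 4 clusters. Groups 4 to 8 held 89.9%, 92.2%, 87.0% and 84.1% over the reliably expressed members and 60.6%, 63.7%, 52.03% and 54.1% without HOXD8, a setting added after seeing the data. The Spearman coefficient with D0 over those 3 members was 0.50, 1 and 1 for D2, D4 and D8. With a pseudocount of 1, the lists had 1 cofactor, 4 regional factors, 1 Polycomb gene and 0 trithorax genes past 2-fold, and with median-ratio scaling 1 trithorax gene. Depth limits the posterior genes most.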
